A study of Homo sapiens with 12 samples.

Results

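CEACAM5 and CEACAM6 are 2 cell adhesion genes of 14884 gene symbols measured here, and where a symbol had several transcript clusters the brightest on average stood for it. Both had 1 cluster, 16862548 for CEACAM5 and 16862563 for CEACAM6, and both passed the filter on low means that left 8930 tested genes. They were chosen because the change of CEACAM5 with Rhosin was already known from these arrays, so their own levels and changes are given as a description and with no test. Total RNA of the established gastric cancer cell lines SNU601, MKN1 and AGS had been hybridised to Affymetrix GeneChip Human Gene 2.0 ST arrays. Each line was exposed to JK139, to JK136, to Rhosin, which blocks the activation of the small GTPase RhoA, or to the solvent DMSO. JK139 and JK136 are known here only by code name, and the labels give neither doses nor times. Each of the 12 combinations had 1 array, so a treatment had 3 arrays, 1 per line, and a line had 4, and nothing says whether they came from separate cultures. All lines were grown in RPMI medium with fetal calf serum, and the labels name no genetic change made to any of them.

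CEACAM5, the carcinoembryonic antigen used as a tumour marker in the clinic, and CEACAM6 are glycoproteins of the immunoglobulin superfamily. Both are held in the outer leaflet of the cell membrane by a glycosylphosphatidylinositol (GPI) anchor, and both bind like molecules on neighbouring cells. They lie on the apical surface of gut epithelium, are often raised in carcinomas of the gut, and are linked to resistance to anoikis, the death of cells that lose their attachment. In contrast, CEACAM1 crosses the membrane and carries a signalling tail inside the cell.

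The 2 genes are neighbours on chromosome 19, in a cluster that also holds CEACAM7 and CEACAM3. The windows from 250 bases before to 50 bases after the start of transcription are shown because the genes share an E-box there, the hexamer CACGTG that is bound by basic helix-loop-helix factors such as USF1 and USF2. CEACAM7, whose window is the most like that of CEACAM5 within the family, is shown for comparison. Sequences are from RefSeq on GRCh38.p14, at chr19:41708376-41708675 (+ strand) for CEACAM5, chr19:41755280-41755579 (+ strand) for CEACAM6 and chr19:41688221-41688520 (- strand) for CEACAM7. They run 5′ to 3′, and capitals mark the E-box or, in CEACAM7, the 6 bases aligned with it.
CEACAM5: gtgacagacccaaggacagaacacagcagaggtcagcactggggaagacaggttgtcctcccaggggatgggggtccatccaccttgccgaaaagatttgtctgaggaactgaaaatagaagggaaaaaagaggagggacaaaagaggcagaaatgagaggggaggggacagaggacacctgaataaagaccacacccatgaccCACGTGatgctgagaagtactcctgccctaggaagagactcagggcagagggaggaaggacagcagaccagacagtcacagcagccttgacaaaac
CEACAM6: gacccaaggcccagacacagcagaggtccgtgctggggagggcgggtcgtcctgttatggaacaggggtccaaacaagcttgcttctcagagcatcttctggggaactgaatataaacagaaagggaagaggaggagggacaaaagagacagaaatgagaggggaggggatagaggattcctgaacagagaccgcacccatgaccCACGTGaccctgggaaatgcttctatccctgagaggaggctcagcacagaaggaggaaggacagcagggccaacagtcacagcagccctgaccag
CEACAM7: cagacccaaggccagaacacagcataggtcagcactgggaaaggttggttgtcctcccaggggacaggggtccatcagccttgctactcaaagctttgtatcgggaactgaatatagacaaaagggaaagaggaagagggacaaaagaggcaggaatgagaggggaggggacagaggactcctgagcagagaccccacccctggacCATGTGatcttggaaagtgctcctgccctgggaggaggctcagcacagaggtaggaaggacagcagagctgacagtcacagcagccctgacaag

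The E-box began 46 bases before the start in CEACAM5 and 45 bases before it in CEACAM6. In CEACAM7, 5 of the 6 aligned bases were the same as in CEACAM5. A search of both strands found CACGTG in 2 of the 10 windows of the CEACAM family that were available, those of CEACAM5 and CEACAM6, and in 7.43% of all 27305 windows. The GC box GGGCGG, bound by SP1, was found in CEACAM6 and not in CEACAM5, against 44.6% of all windows. The AP-1 motif TGANTCA was found in neither, against 7.76% of all windows, and neither was GCGTG, the core recognised by the aryl hydrocarbon receptor, against 36.3%. The ETS core AGGAAG was found in both, in 7 of the 10 family windows and in 33.7% of all windows. TATAAA was found in CEACAM6, beginning 139 bases before its start, and not in CEACAM5, against 11.95% of all windows. In global alignments the CEACAM5 and CEACAM6 windows were identical at 74.7% of 308 columns, and CEACAM5 and CEACAM7 at 81.4% of 306. These matches describe the letters of the windows, and binding was not measured.

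The arrays were alike in overall signal, with medians over all 53617 clusters within 4.14 to 4.2 on the log2 scale. Across clusters, Pearson's r was 0.978 to 0.988 for pairs of arrays from the same line and 0.927 to 0.960 for pairs from different lines. As a background level, the 95th percentile of 86 clusters of keratin-associated protein genes, which code for hair proteins, was taken on each array, and it lay between 5.87 and 6.26. Of 4 measured epithelial markers, the keratins KRT18 and KRT19 and the adhesion molecule EPCAM were above this level on all 12 arrays. EPCAM averaged 10.2 in SNU601, 6.49 in MKN1 and 10.0 in AGS, while the keratins KRT18 (10.7 in MKN1, 9.63 in AGS), KRT19 (9.72 and 8.27) and KRT8 (6.55 and 6.16) had higher means in MKN1 than in AGS. Of 4 measured mesenchymal markers, FN1, fibronectin, and VIM, vimentin, were above it only in MKN1 (means 9.59 and 8.26). ZEB1 was above it on 2 of the 4 MKN1 arrays and on no array of the other lines. ZEB2 was level across lines, with means of 3.61 in SNU601, 3.58 in MKN1 and 3.62 in AGS, and lay below it on all arrays. The 4 measured leukocyte markers MPO, CSF3R, S100A12 and CD14 lay below it on all 12 arrays, between 2.19 and 4.97. RHOA, the target of Rhosin, lay between 9.88 and 10.23 on all arrays.

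CEACAM5 was strongly expressed in SNU601 and AGS and lay at background in MKN1. Its level in SNU601 was 9.66 with JK139, 9.62 with JK136, 10.21 with Rhosin and 9.203 with DMSO (log2). In MKN1 it was 3.50 with JK139, 3.12 with JK136, 4.37 with Rhosin and 2.9995 with DMSO. In AGS it was 9.03 with JK139, 8.18 with JK136, 10.45 with Rhosin and 9.50 with DMSO. All 4 arrays of SNU601 and of AGS were above background and all 4 of MKN1 below it, with the Rhosin array the highest in each line. Against the lower mark of the median of all clusters of an array, the Rhosin array of MKN1 was above and the other 3 were not.

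The line means of CEACAM5 were 9.67 ± 0.41 in SNU601, 3.50 ± 0.62 in MKN1 and 9.29 ± 0.95 in AGS (SD, n = 4 arrays). The means of SNU601 and AGS differed by 0.39, less than the SD within AGS, and their arrays overlapped. That SD is over 4 treatments, so it includes differences between treatments. Matched by treatment, SNU601 was lower than AGS with DMSO (9.203 against 9.50) and with Rhosin (10.21 against 10.45). It was higher with JK139 (9.66 against 9.03) and with JK136 (9.62 against 8.18). MKN1 was separated from the lowest array of the other lines by a gap of 3.80. With MKN1 values raised to the background of their arrays, CEACAM5 was at least 12.7-fold higher in SNU601 than in MKN1 and at least 9.74-fold lower in MKN1 than in AGS. In bulk RNA, fewer expressing cells and less RNA per cell cannot be told apart. In the order of the 8 arrays above background, the Rhosin arrays of AGS and SNU601 stood highest and the JK136 array of AGS lowest, 0.85 under its JK139 array.

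CEACAM6 had the same order of line means as CEACAM5, with a wider gap between SNU601 and AGS. Its level in SNU601 was 11.31 with JK139, 11.33 with JK136, 11.48 with Rhosin and 11.18 with DMSO. In MKN1 it was 2.29 with JK139, 3.05 with JK136, 2.71 with Rhosin and 2.36 with DMSO. In AGS it was 9.02 with JK139, 8.94 with JK136, 9.14 with Rhosin and 9.42 with DMSO. The 3 lines did not overlap, and all 4 MKN1 arrays lay below background and below the median of all clusters.

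The line means of CEACAM6 were 11.33 ± 0.12 in SNU601, 2.60 ± 0.35 in MKN1 and 9.13 ± 0.21 in AGS (SD, n = 4 arrays). SNU601 exceeded AGS by 2.20 ± 0.15 (log2, SE), which is 4.58-fold. With MKN1 raised to background, the level was at least 40.1-fold higher in SNU601 than in MKN1 and at least 8.74-fold lower in MKN1 than in AGS. Within SNU601 the 4 arrays spanned 0.30 and within AGS 0.48, while CEACAM5 spanned 1.004 and 2.27 in the same lines. The median span of the tested genes was 0.25 in SNU601 and 0.34 in AGS. Spans at least as wide as that of CEACAM5 were found in 0.470% of tested genes in SNU601 and 0.101% in AGS, against 36.0% and 25.9% for CEACAM6.

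**Figure D1:**
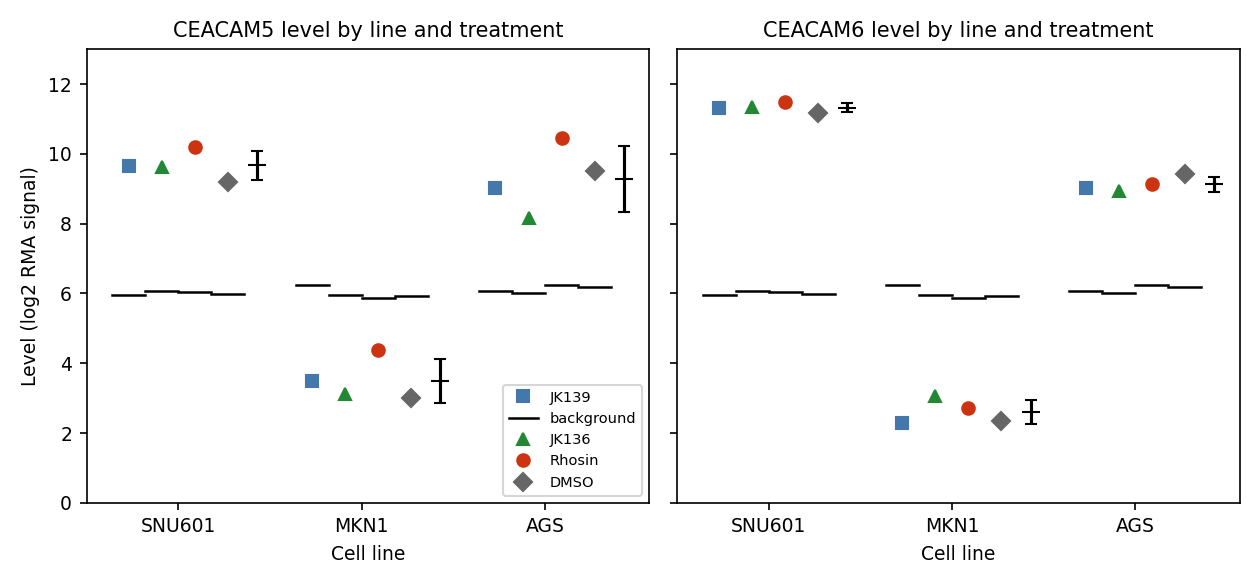
Level of CEACAM5 and CEACAM6 (log2 RMA signal, vertical axis) on each of the 12 arrays by cell line, with 1 point per treatment, a short black line for the background level of that array, and the mean ± SD of the 4 arrays of a line at its right. MKN1 lies below background for both genes, the Rhosin point is the highest of each line for CEACAM5, and CEACAM6 is higher in SNU601 (11.33) than in AGS (9.13).

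The comparison with DMSO asks how each gene changed with a compound in each line. CEACAM5 was higher with Rhosin than with DMSO by 1.004 in SNU601 and by 0.95 in AGS (log2), which is 2.01-fold and 1.93-fold. The mean of these lines was 0.98 ± 0.04 (SD, n = 2 lines), and the fit over all 3 lines gave 1.11 ± 0.27 (SE). In MKN1 both arrays lay below background, so no fold is given there. Differences at least as large were found in 0.112% of tested genes in SNU601 and 0.179% in AGS. At least 1.5-fold higher with Rhosin were 1.15% of tested genes in SNU601 and 1.99% in AGS, and 13 genes (0.146%), CEACAM5 among them, were so in both lines. In all 3 lines this held for 1 gene (0.0112%), CEACAM5 itself, with its MKN1 values below background. Since CEACAM5 was chosen on this comparison, these shares are a description. Leaving out the AGS DMSO array gave 1.42 for the 3 lines, and leaving out any other array gave 0.91 or more.

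With JK136 the lines in which CEACAM5 is expressed differed from DMSO in opposite directions. In AGS its level was 1.32 lower than with DMSO (8.18 against 9.50), a 2.50-fold difference, and falls at least as large were found in 0.0896% of tested genes. In SNU601 it was 0.42 higher (9.62 against 9.203), as far as 2.42% of tested genes. At least 1.5-fold lower with JK136 in AGS were 2.34% of tested genes. The fit over 3 lines gave -0.26 ± 0.27 (SE). That value turned to 0.14 without the AGS JK136 array and to 0.05 without the AGS DMSO array, so its sign rests on AGS.

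With JK139 the pattern of CEACAM5 had the same signs and a smaller size in AGS. Its level was 0.47 lower in AGS (9.03 against 9.50) and 0.45 higher in SNU601 (9.66 against 9.203), so that both differences were under 1.5-fold. Differences at least as far in the same direction were found in 1.61% of tested genes in AGS and 1.46% in SNU601. The fit over 3 lines gave 0.16 ± 0.27 (SE), and -0.0037 without the MKN1 DMSO array.

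CEACAM6 differed less from DMSO than CEACAM5 with Rhosin and JK136 in both lines that express it. With Rhosin it was 0.30 higher than with DMSO in SNU601 and 0.29 lower in AGS (1.23-fold and 1.22-fold), with a fit over 3 lines of 0.12 ± 0.18 (SE). With JK136 it was 0.15 higher in SNU601 and 0.48 lower in AGS, and with JK139 0.13 higher in SNU601 and 0.41 lower in AGS. In each comparison with DMSO, SNU601 lay above 0 and AGS below 0, and the 3 comparisons within a line share its DMSO array. Rises at least as far as that with Rhosin were found in 6.90% of tested genes in SNU601, and falls at least as far as that with JK136 in 4.27% in AGS. The fit over 3 lines gave 0.12 for JK136 and -0.12 for JK139 (SE 0.18 each), and leaving out single arrays moved both across 0. Over SNU601 and AGS alone, the lines above background, the mean was 0.01 for Rhosin, -0.16 for JK136 and -0.14 for JK139, so the sign for JK136 turned without MKN1, where both arrays lay below background and differed by 0.69. Rhosin too gave -0.02 without the MKN1 DMSO array. The 2 genes thus had unlike values on the same arrays: with Rhosin in AGS, CEACAM5 was higher by 0.95 while CEACAM6 was lower by 0.29.

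**Figure D2:**
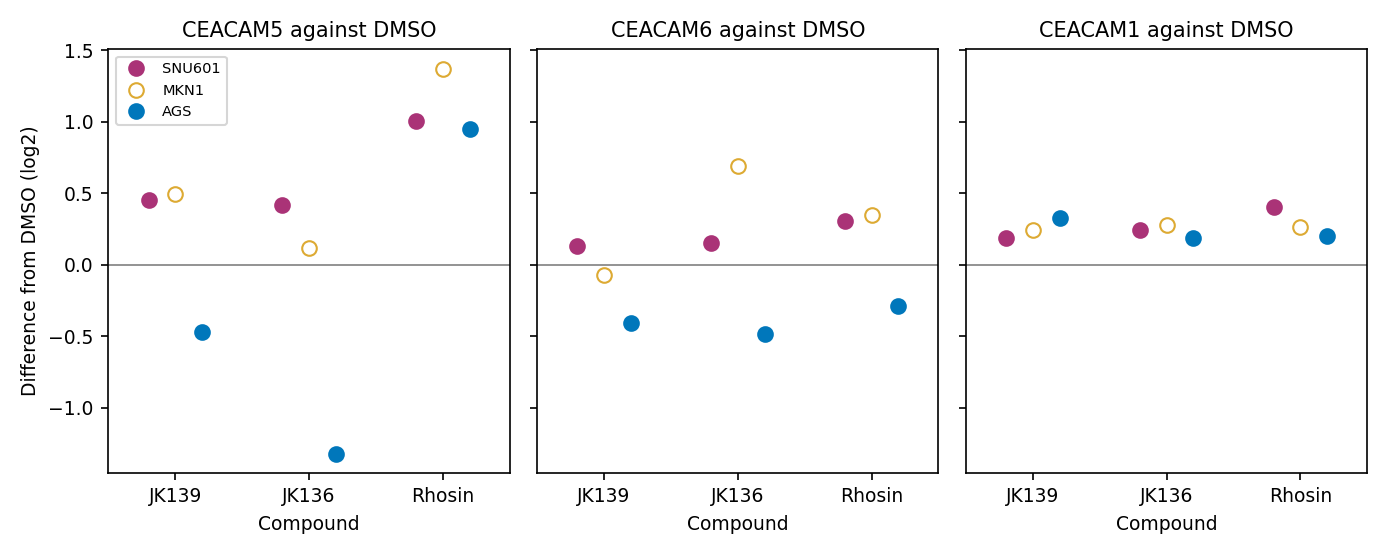
Difference from DMSO (log2, vertical axis) with each compound for CEACAM5, CEACAM6 and CEACAM1, 1 point per line, open where both arrays lie below background (MKN1). CEACAM5 is higher with Rhosin by 1.004 in SNU601 and 0.95 in AGS, its AGS value with JK136 is -1.32, and the CEACAM1 points lie between 0.19 and 0.40.

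The compounds were set against each other on the same lines, in 3 pairs, although the labels do not say whether doses and times matched. CEACAM5 was lower with JK136 than with Rhosin by 2.27 in AGS (4.83-fold) and by 0.58 in SNU601 (1.498-fold). At least 1.5-fold lower in this pair were 3.95% of tested genes in AGS and 0.896% in SNU601. Falls at least as large were found in 0.0560% of tested genes in AGS and 0.918% in SNU601. It was lower with JK139 than with Rhosin by 1.42 in AGS (2.68-fold) and by 0.55 in SNU601 (1.47-fold), where 2.45% of tested genes were at least 1.5-fold lower in AGS. Between JK139 and JK136 it differed by 0.85 in AGS and by 0.03 in SNU601. AGS thus ordered the arrays as Rhosin, DMSO, JK139 and JK136 from high to low, and in SNU601 the JK139 and JK136 arrays were close to each other, between Rhosin and DMSO.

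For CEACAM6 the same 3 pairs differed by less in the lines that express it. With JK136 it was lower than with Rhosin by 0.20 in AGS and 0.15 in SNU601, and with JK139 lower by 0.12 and 0.17. Between JK139 and JK136 it differed by 0.08 in AGS and -0.02 in SNU601. The widest in AGS, 0.20 with JK136 against Rhosin, was matched by falls at least as far in 26.4% of tested genes. The widest in SNU601, 0.17 with JK139 against Rhosin, was matched by such falls in 17.9%. With limma, 0 of 8930 genes (0.00%) were called in any of the 6 comparisons of treatments, with the smallest adjusted p at 0.0999 for JK136 against Rhosin. At an unadjusted p under 0.05 there were 560 genes for Rhosin, 469 for JK136 and 218 for JK139 against DMSO, and between compounds 812 for JK136 against Rhosin, 663 for JK139 against Rhosin and 494 for JK139 against JK136.

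**Figure D3:**
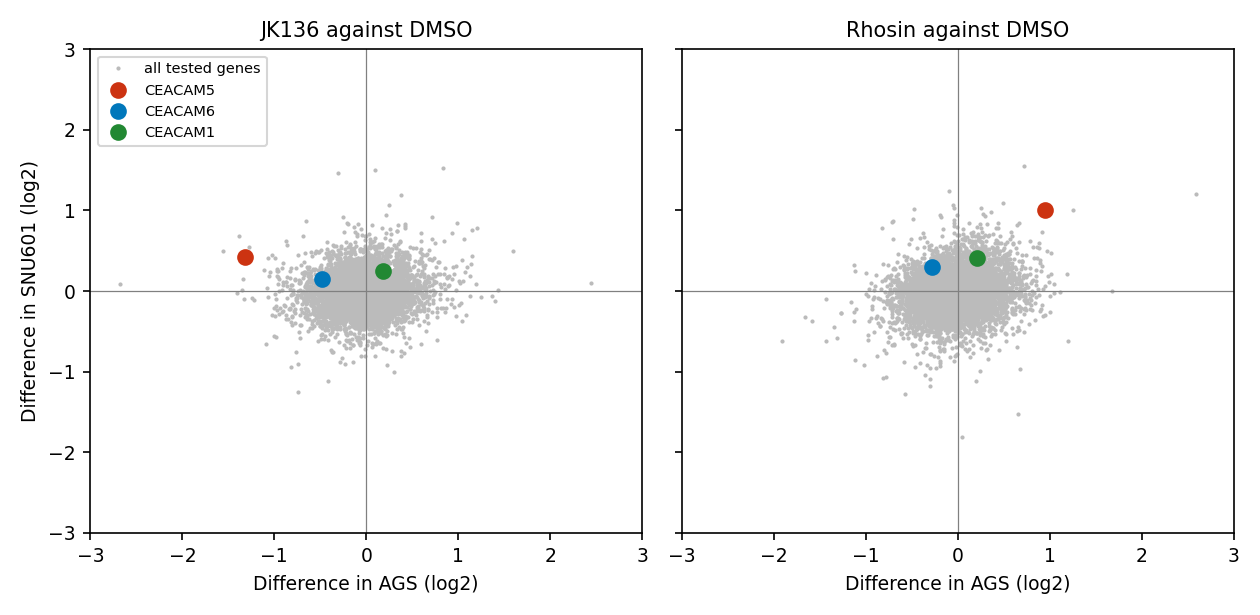
Difference from DMSO in AGS (horizontal axis, log2) and in SNU601 (vertical axis, log2) for all 8930 tested genes (grey) with CEACAM5, CEACAM6 and CEACAM1 marked, for JK136 (left) and Rhosin (right). CEACAM5 lies at 0.95 and 1.004 with Rhosin, and at -1.32 and 0.42 with JK136, outside the dense part of the cloud in both panels.

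Of the 12 CEACAM genes on the list for the family, 11 had a cluster, and beside CEACAM5 and CEACAM6 just CEACAM1 lay above background in any line. CEACAM1, an adhesion receptor with a signalling tail, averaged 7.92 ± 0.17 in SNU601, 5.45 ± 0.13 in MKN1 and 8.54 ± 0.14 in AGS (SD, n = 4 arrays). It lay below background on the 4 MKN1 arrays, as both other genes did. Unlike them, it lay above the lower mark of the median of all clusters on all 4. CEACAM1 was at least 3.78-fold higher in SNU601 than in MKN1. It was at least 5.81-fold lower in MKN1 than in AGS, with adjusted p of 1.99e-11 in limma's fit. It also differed between SNU601 and AGS, by -0.62 ± 0.08 (SE, limma adjusted p 3.15e-05). Between the lines that express both, CEACAM6 was higher in SNU601 by 2.20 while CEACAM1 was lower.

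CEACAM1 had 8.69 with JK139, 8.55 with JK136, 8.56 with Rhosin and 8.36 with DMSO in AGS. In SNU601 it had 7.90 with JK139, 7.96 with JK136, 8.12 with Rhosin and 7.71 with DMSO. The DMSO array was the lowest of all 4 in each line, and the compounds share it. The difference from DMSO was 0.29 ± 0.09 with Rhosin, 0.24 ± 0.09 with JK136 and 0.26 ± 0.09 with JK139 (log2, SE). None passed, with limma adjusted p of 0.643, 0.902 and 0.9999, in comparisons that called 0.00% of genes.

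The other 8 family members lay below background on all 12 arrays. CEACAM7, a GPI-anchored gene of colon epithelium, had line means of 2.86 in SNU601, 2.64 in MKN1 and 2.34 in AGS. CEACAM8, a granulocyte gene, had 2.68, 2.38 and 2.35 in the same order. On the SNU601 and AGS arrays, where CEACAM5 and CEACAM6 exceeded 8, CEACAM7 and CEACAM8 stayed between 2.13 and 3.003. The probe sequences were not analysed here, and cross-hybridisation between CEACAM5 and CEACAM6 was not tested. Of the 9 family genes with a cluster beside CEACAM5 and CEACAM6, limma without the filter on low means called 2 as lower in MKN1 than in AGS, against 21.4% of all genes, and 0 as higher, against 26.4%. CEACAM19 averaged 5.02 in SNU601, 4.91 in MKN1 and 5.64 in AGS, all below background, so no fold is given. It was lower than in AGS in MKN1 and also in SNU601 (limma adjusted p 0.000225 and 0.00115), and SNU601 against MKN1 did not pass (adjusted p 0.459). CEACAM3 averaged 4.601 in SNU601, 4.53 in MKN1 and 4.78 in AGS and passed the filter through AGS alone.

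**Figure D4:**
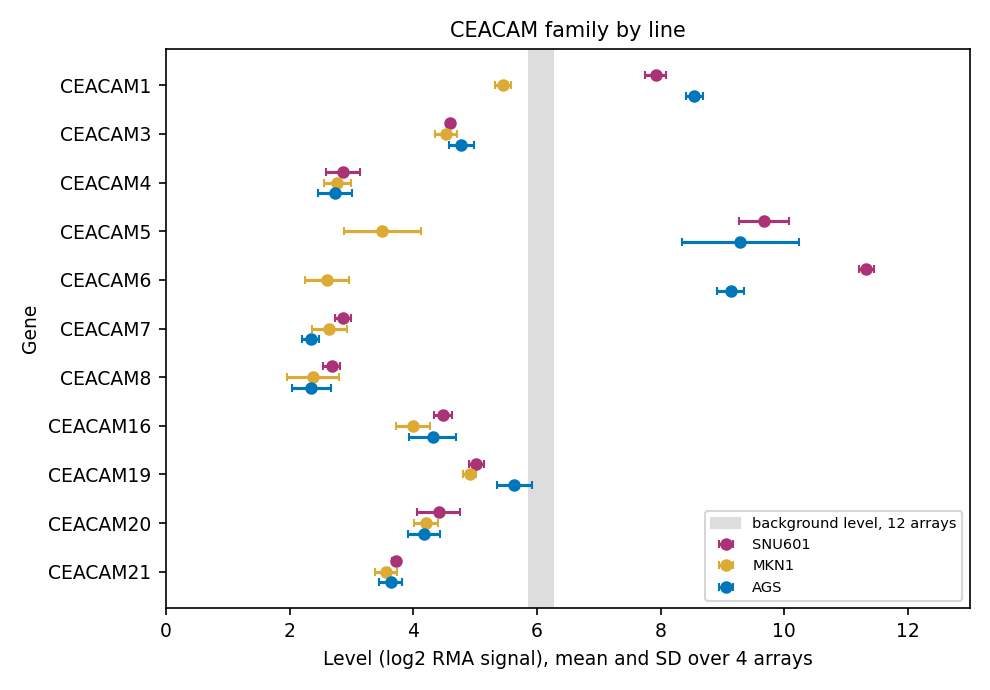
Mean level (log2 RMA signal, horizontal axis) with SD over the 4 arrays of each line for the 11 CEACAM genes with a cluster, and the range of the background level over 12 arrays in grey. CEACAM5, CEACAM6 and CEACAM1 lie above background in SNU601 and AGS and below it in MKN1, and the other 8 genes lie below it in all lines.

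Genes of related roles were compared between lines to show what else was low in MKN1 beside CEACAM5 and CEACAM6. Of 19 listed surface and brush border genes of gut epithelium, 10 were tested, and in MKN1 against AGS 7 were called as lower and 1 as higher, with a median difference of -0.93 against 0.02 over all tested genes. VIL1 and CLDN18 averaged under the filter's minimum of 4.61 in MKN1 and were tested through the lines where they are high. Without the filter, all 11 with a cluster gave the same counts of 7 and 1, with a median of -0.33, against 21.4% of all genes called as lower and 26.4% as higher. Over all tested genes limma called 66.3% in MKN1 against AGS, 31.0% as lower and 35.3% as higher. CLDN4 and CLDN18, both below background in both lines, are among the 7. CLDN18 averaged 3.76 in MKN1 and 4.02 in AGS, both under the filter's minimum, and was tested through SNU601 alone (9.52). EPCAM was lower by 3.55 ± 0.11 in MKN1 (6.49 against 10.0) and CLDN7, a tight junction claudin, by 3.57 ± 0.11 (6.06 against 9.63), with limma adjusted p of 6.64e-11 and 8.58e-11. VIL1, villin of the brush border, was below background in MKN1 (4.31 against 7.94 in AGS) and at least 3.83-fold lower there. TSPAN8, a tetraspanin of gut epithelium, was likewise below background in MKN1 (5.35 against 8.32) and at least 4.98-fold lower. The limma adjusted p of TSPAN8 was 1.92e-08. CLDN3, another claudin, was the 1 gene called as higher in MKN1, by 0.56 ± 0.08. In SNU601 against MKN1, where limma called 63.4% of all genes, 8 of the 10 were called as higher (32.3% of all genes) and 1 as lower (31.1%), with a median of 2.62 against 0.02 over all genes.

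Of 19 listed transcription factors of gut epithelium, the 14 with a cluster were all tested, and in MKN1 against AGS 9 were called as lower (31.0% of all tested genes) and 1, KLF4, as higher (35.3%). Without the filter on low means 9 were called as lower and 0 as higher. SOX9, a factor of gut progenitor cells, averaged 7.51 in MKN1 and 10.1 in AGS, a difference of -2.54 ± 0.12 (SE, limma adjusted p 2.78e-09). SOX2, a factor of stomach epithelium, GATA4 and FOXA1 were below background in MKN1, at 4.24, 4.38 and 4.30, against 6.64, 6.46 and 6.25 in AGS, where 3 of 4 arrays of each gene were above it. At least 1.55-fold, 1.37-fold and 1.19-fold lower levels follow for SOX2, GATA4 and FOXA1. In MKN1 these 3 averaged under the filter's minimum and were tested through the other lines, so no p is given. In SNU601 against MKN1, 11 of the 14 were called as higher (32.3% of all genes) and 0 as lower (31.1%). In SNU601 against AGS, where 52.7% of all genes were called, the list was split, with 4 higher and 3 lower (29.9% and 22.8% of all genes).

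**Figure D5:**
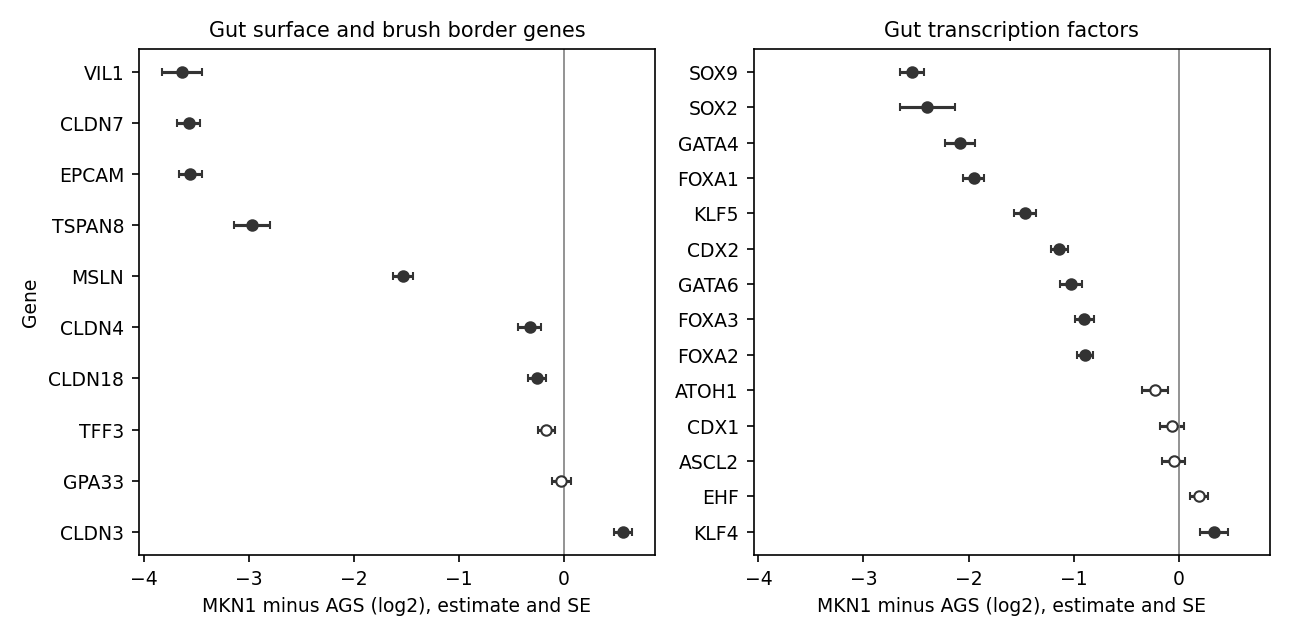
MKN1 minus AGS (log2, horizontal axis), estimate and SE from limma, for the 10 tested surface and brush border genes (left) and the 14 tested transcription factors (right), filled where the adjusted p was under 0.05, in the fit with the filter on low means. On the left 7 filled points lie below 0 and 1 above, and on the right 9 lie below and 1 above.

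Among genes that build or trim the GPI anchor, 6 of 29 listed had a cluster and all 6 were tested. In MKN1 against AGS 2 were called as lower (31.0% of all genes) and 1 as higher (35.3%), with a median of -0.09. With 6 genes, these counts were not tested against those shares. In SNU601 against MKN1, 3 were called as higher and 2 as lower (32.3% and 31.1% of all genes), with a median of 0.41 against 0.02 over all genes. PGAP1, which removes the inositol acyl chain of the anchor, was lower in MKN1 than in AGS by 1.07 ± 0.10 (6.24 against 7.31). GPAA1, a subunit of the enzyme that attaches the anchor, was higher in MKN1 than in AGS by 0.91 ± 0.10 (7.38 against 6.48). Their limma adjusted p were 1.22e-06 and 4.55e-06. MPPE1, an anchor remodelling enzyme, averaged 5.67 in MKN1, below background on all 4 arrays, against 6.18 in AGS, where 1 of 4 arrays was above it (limma adjusted p 0.00123), and PGAP2 did not pass (5.97 against 6.13, adjusted p 0.126). Of 10 listed integrin and kinase partners, 3 were tested. SRC was lower in MKN1 than in AGS by 0.75 ± 0.10 and PTK2, focal adhesion kinase, higher by 0.66 ± 0.07, with limma adjusted p of 3.57e-05 and 4.23e-06, and AKT1 did not pass (adjusted p 0.217). In the 6 comparisons of treatments, 0 genes of these lists were called. The list medians for Rhosin against DMSO were -0.02 for the surface genes, 0.05 for the transcription factors, -0.07 for the anchor genes and -0.05 for the partners, against -0.02 over all tested genes.

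Likeness to each gene was then measured in 2 ways over the 12 arrays. For the response, each array was set against the mean of its line, and Pearson's r was computed across the 12 deviations, which share the line means and arrays. The 5 genes most like CEACAM5, CEACAM genes aside, were CCDC28A (r 0.96), TMEM45B (0.93), PABIR3 (0.93), MIR619 (0.92) and ESRP1 (0.92), the last a splicing regulator of epithelial cells. Their differences between Rhosin and DMSO were smaller than that of CEACAM5 in each line. PABIR3 and MIR619 averaged under 5.87, the lowest background level of the arrays, in all 3 lines, and so did ESRP1 in MKN1 (4.11). CCDC28A averaged 5.94 in AGS, under the lowest background level of an AGS array (6.02). TMEM45B, a membrane protein gene, was higher with Rhosin than with DMSO by 0.39 in SNU601, 0.60 in MKN1 and 0.39 in AGS, and lower with JK136 by 0.30 in AGS. ESRP1 was higher with Rhosin by 0.42 in AGS and differed by -0.01 in SNU601. For CEACAM6 the 5 genes were CALML4 (0.94), RNF113A (0.94), RAP1GAP2 (0.93), TRIP10 (0.91) and AKAP12 (0.90). Among them RNF113A and AKAP12 averaged under 5.87 in all 3 lines, and so did CALML4 in MKN1 (4.94) and AGS (5.51). Of the squared deviations of CEACAM6 that this r rests on, 67.2% come from the MKN1 arrays, all below background, so its list mostly ranks signal that is not above background. For CEACAM5 the MKN1 share was 26.6%, while AGS gave 61.8% and SNU601 11.7%, so its list rests mostly on the 4 AGS arrays. CEACAM5 and CEACAM6 had an r of 0.33 with each other by this measure (Spearman's rho 0.50). With CEACAM1, r was 0.29 for CEACAM5 and 0.21 for CEACAM6.

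For the level, the root-mean-square difference between the centred values of 2 genes was taken. ESRP1 was nearest to CEACAM5 (0.73), with means of 8.86 in SNU601, 4.11 in MKN1 and 8.95 in AGS, followed by CTSE, a gastric aspartic protease (0.84), ZNF544 (0.97), RNF43 (1.004) and LGR5 (1.03). RNF43 and LGR5 code for Wnt pathway components of gut stem cells. LYZ, lysozyme, was nearest to CEACAM6 (0.63), with means of 11.84 in SNU601, 3.74 in MKN1 and 10.83 in AGS. After it came CTSE (1.06), ESRP1 (1.65), ZNF544 (1.68) and GALNT3, a starter enzyme of mucin-type glycosylation (1.71). MKN1 was the line with the lowest mean in these genes, which follows from choosing them by nearness of level to CEACAM5 or CEACAM6. All but CTSE averaged under the filter's minimum of 4.61 in MKN1 and were tested through the other lines.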

How the data were processed

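The authors deposited log2 signals of 53617 transcript clusters on 12 arrays, computed per the submitters' processing notes with RMA in Affymetrix Expression Console, whose versions are not given in the sources used here. RMA corrects background, equalises the arrays' distributions and summarises probes. Symbols came from the platform annotation (16098 clusters, 14884 symbols), and the cluster with the highest mean stood for each symbol. Genes with a mean under the 40th percentile (4.61) were left out. Limma 3.58.1 in R 4.3.3 was fitted with treatment and line as fixed terms over all arrays (6 residual degrees of freedom), with Benjamini-Hochberg adjustment over 8930 genes and a threshold of 0.05, and was tested on simulated data. Lines are the replicates of a treatment, and treatments those of a line. Same-line arrays pair the treatments, by the labels.

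The members, gene lists and tests were chosen with earlier results of these data known. The background level was planned on olfactory receptor clusters, of which the annotation used here named 1, so keratin-associated protein clusters took their place after the data were seen. A difference with both arrays below it got no fold, and with a line below it on all arrays the fold is a bound. Named genes were the 2 members, the CEACAM family, in each list the 4 with the largest MKN1 to AGS difference, RHOA, and by each measure the 5 genes most like each member; CLDN3, CLDN4, CLDN18, KLF4, PSG2, PSG11 and the markers were named outside this rule. Motifs and alignments used Python 3.11.15 and Biopython 1.88. Array number limits the precision. Alternatives were quantile normalization, median centring, other filters, priors and background levels, no line term, and leaving out arrays or lines; list counts without the filter were added after the values were seen.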

Additional observations from a re-analysis of the deposited data

Results flagged for a closer look

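CEACAM5 differed from DMSO in opposite directions in SNU601 and AGS, with JK136 and with JK139. The response in SNU601 minus that in AGS was 1.74 for JK136 and 0.92 for JK139 (log2). CEACAM6 did so with all 3 compounds against DMSO, with 0.59 for Rhosin, 0.64 for JK136 and 0.54 for JK139, and between JK139 and JK136 with -0.10. These differences between lines were not tested, since each response is 1 array against 1 array, and all comparisons with DMSO in a line share its DMSO array.

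The DMSO array of MKN1 lay apart from the other 3 for CEACAM1, with a gap of 0.88 of the whole range, above Dixon's 95% critical value (5.25 with DMSO, against 5.50 to 5.53 with the compounds). All 4 values lie below background. Of 15 groups of 4 arrays examined this was the 1 that stood out, and chance gives such a result in about 1 of 20 groups.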

How the results depend on the processing

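Of 479 alternative values for 29 results, 469 stayed within the SD over lines or treatments or within 1.5 times a count. This rule is wide, and a change of sign can pass it. For CEACAM5 with JK136 against DMSO the SD over lines was 0.93, with an estimate of -0.26. With MKN1 raised to background, the CEACAM5 difference was -3.28 for MKN1 against AGS and 3.67 for SNU601 against MKN1, and that of CEACAM6 -3.13 and 5.32. Against the median of all clusters 1 MKN1 array was above for CEACAM5. With trend and robust priors, limma called 1 gene for Rhosin against DMSO and 2 for JK136 against Rhosin, and without the filter 1 for JK136 against DMSO, none of them CEACAM5 or CEACAM6; the cause was not tested. Leaving out each array in turn gave 0.91 to 1.42 for CEACAM5 with Rhosin against DMSO, and 0 to 3 genes called for JK136 against Rhosin, the 3 without the MKN1 JK136 array. Over the same alternatives CEACAM5 ranged from -0.57 to 0.14 for JK136 and from -0.0037 to 0.47 for JK139 against DMSO, and CEACAM6 from -0.02 to 0.34 for Rhosin, -0.12 to 0.34 for JK136 and -0.26 to 0.10 for JK139. Without the line as a block the CEACAM5 difference with Rhosin stayed at 1.11 with an SE of 2.54, and 0 genes were called. Without AGS, CEACAM5 with JK136 against DMSO was 0.27, opposite in sign, and without MKN1 it was -0.45. Signals near background, as in MKN1, limit what can be said of changes there.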

Other observations

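The PSG genes are pregnancy-specific glycoproteins that lie on chromosome 19 and belong to the same branch of the immunoglobulin superfamily. They had 10 members with a cluster, and 9 of them had their highest value of all 12 arrays on the AGS JK136 array. The share of all genes with their highest value on that array was not computed, so the count of 9 has no background to be set against. The 3 highest there were PSG6, PSG2 and PSG11. PSG6 had 5.59 with JK139, 6.97 with JK136, 5.05 with Rhosin and 4.52 with DMSO in AGS. PSG2 had 3.92 with JK139, 6.68 with JK136, 3.20 with Rhosin and 4.47 with DMSO. PSG11 had 3.64 with JK139, 5.72 with JK136, 1.55 with Rhosin and 2.78 with DMSO, all below background. On that 1 array PSG6 and PSG2 were above background, and in SNU601 and MKN1 they lay below it on all arrays. The other PSG genes lay below background on all 12 arrays. Among them PSG9 had 4.602 with JK136 and 4.589 with Rhosin in AGS. The PSG genes are near-identical in sequence, so these clusters are not independent, and the differences rest on 1 array with no test. PSG6, the 1 PSG gene tested, had an estimate of 0.75 for JK136 against DMSO over the 3 lines and was not called in any comparison of treatments.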
